A study of Mus musculus with 24 samples.

Results

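The genes described here are 39 interferon-responsive genes of the mouse, read across 8 groups of marrow-derived mesenchymal stem cells (MSC). They were chosen by symbol, as genes known to respond to interferon. All 39 symbols were found among the 25385 genes of the deposited RPKM tables, and transcripts of a symbol were summed. RPKM is reads per kilobase of transcript per M mapped reads, so levels can be set beside each other across genes. The study measured RNA in MSC before and after osteogenic or adipogenic differentiation, with and without 1,25(OH)2D3 (VD3), the hormonal form of vitamin D. The groups were adipogenic day 7 with VD3 and with vehicle, day 0 (no differentiation medium) with VD3 and with vehicle, osteogenic day 7 with VD3 and with vehicle, and osteogenic day 15 with VD3 and with vehicle, at 3 libraries a group. VD3 was given at 100 nM for the last 24 hours before RNA was harvested, and the vehicle was ethanol. Adipogenic medium held insulin, indomethacin and the glucocorticoid dexamethasone, and osteogenic medium held beta-glycerophosphate and ascorbic acid. All cells came from 1 laboratory's cryopreserved stock, expanded for a limited number of passages. The labels name no batch and do not say that the 3 libraries of a group came from separate cultures, so a p-value here speaks of the scatter among the 3 libraries, which may be technical.

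Interferons are secreted proteins that warn cells of infection. Type I interferons signal through the receptor chains Ifnar1 and Ifnar2 and the kinases Jak1 and Tyk2 to a complex that includes Stat2 and Irf9 and binds the interferon-stimulated response element, and interferon gamma signals through Ifngr1, Ifngr2, Jak1 and Jak2 to a factor that binds the gamma-activated site. The genes switched on include RNA sensors, RNA-binding inhibitors of translation, ubiquitin-like modifiers and membrane GTPases, and many are also transcribed at a lower level in cells that are not infected. Stem and stromal cells are known to keep a part of this programme on without added interferon.

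The starts of some of these genes hold letters that these complexes are known to bind, so the windows of members on which the results turn are printed first. RefSeq promoter windows, 250 bases before to 50 after the gene's start in build GRCm38.p6, were matched by symbol for 29 of the 39 members. The letters searched on both strands were GAAA, any 2 bases and GAAA again, the core of the interferon-stimulated response element, and TTCNNNGAA, the core of the gamma-activated site, and the letters of the 2 may overlap. The paired GAAA was in a window of 15 of the 29 members (51.7%), against 1079 of all 27025 genes with a window (3.99%). TTCNNNGAA was in 8 of the 29 (27.6%), against 9.55% of all genes. The windows below are those of Isg15, Ifit1, Ifit3 and Rsad2, of Gbp2, which was higher in adipogenic cells, and of Irgm1, which was lower in them. Each is written 5′ to 3′ on the gene's own strand, and capitals mark every paired GAAA on either strand, with overlapping matches run together. Coordinates are given for this build only and not for that of the deposited values.

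Isg15, chr4:156200769-156201068, minus strand: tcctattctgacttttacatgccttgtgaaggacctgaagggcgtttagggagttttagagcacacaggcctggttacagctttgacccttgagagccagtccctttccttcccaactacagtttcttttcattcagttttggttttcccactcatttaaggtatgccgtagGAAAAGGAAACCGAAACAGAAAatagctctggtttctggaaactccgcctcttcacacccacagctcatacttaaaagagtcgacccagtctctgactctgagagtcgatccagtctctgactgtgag

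Ifit1, chr19:34640639-34640938, plus strand: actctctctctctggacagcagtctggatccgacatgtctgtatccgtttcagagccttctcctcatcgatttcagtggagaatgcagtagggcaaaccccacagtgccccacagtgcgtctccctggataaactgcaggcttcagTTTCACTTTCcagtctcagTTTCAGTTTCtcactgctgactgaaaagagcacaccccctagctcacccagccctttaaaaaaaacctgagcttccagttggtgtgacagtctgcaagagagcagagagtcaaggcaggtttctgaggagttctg

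Ifit3, chr19:34583279-34583578, plus strand: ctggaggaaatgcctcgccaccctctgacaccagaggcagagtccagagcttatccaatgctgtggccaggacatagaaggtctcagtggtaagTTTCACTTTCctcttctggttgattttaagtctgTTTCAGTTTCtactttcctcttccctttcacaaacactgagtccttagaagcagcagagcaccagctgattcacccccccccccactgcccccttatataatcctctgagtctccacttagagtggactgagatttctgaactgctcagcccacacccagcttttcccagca

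Rsad2, chr12:26456403-26456702, minus strand: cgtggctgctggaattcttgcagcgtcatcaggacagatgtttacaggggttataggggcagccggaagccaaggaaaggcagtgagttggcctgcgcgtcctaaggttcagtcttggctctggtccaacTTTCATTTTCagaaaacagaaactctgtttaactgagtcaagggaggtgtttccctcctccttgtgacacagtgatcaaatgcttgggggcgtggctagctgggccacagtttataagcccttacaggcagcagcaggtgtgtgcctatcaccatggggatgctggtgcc

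Gbp2, chr3:142620413-142620712, plus strand: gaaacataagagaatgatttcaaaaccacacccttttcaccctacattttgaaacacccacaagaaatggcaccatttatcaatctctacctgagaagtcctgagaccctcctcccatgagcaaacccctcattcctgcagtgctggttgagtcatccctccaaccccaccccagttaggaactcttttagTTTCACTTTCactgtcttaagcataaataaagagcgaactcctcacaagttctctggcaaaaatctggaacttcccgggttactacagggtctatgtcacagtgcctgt

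Irgm1, chr11:48871371-48871670, minus strand: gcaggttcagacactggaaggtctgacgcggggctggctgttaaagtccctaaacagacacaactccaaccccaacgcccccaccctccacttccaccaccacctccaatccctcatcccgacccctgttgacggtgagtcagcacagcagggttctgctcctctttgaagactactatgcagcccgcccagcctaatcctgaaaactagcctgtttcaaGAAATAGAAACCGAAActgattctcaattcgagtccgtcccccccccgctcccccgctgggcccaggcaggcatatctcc

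The match lay 59 bases before the start in Gbp2 and 30 and 24 bases before it in Irgm1. The other members with the letters were Bst2, Gbp3, Igtp, Oas1a, Oas3, Stat2, Ddx58, Eif2ak2 and Ifih1. The letters were not in the windows of Cmpk2, Dtx3l, Herc6, Ifi35, Ifi44, Ifit2, Irf1, Irf7, Irf9, Oasl1, Oasl2, Samhd1, Trim25 and Xaf1, which says only that these letters are absent from these 300 bases. No window was matched for Dhx58, Zbp1, Oas2, Usp18, Parp9, Parp14, Mx1, Mx2, Rtp4 and Ifi27l2a.

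The 24 libraries held an estimated 7.09 to 46.1 M reads, at which 3 reads on 1 kilobase are 0.0650 to 0.423 RPKM, a limit that covers counting error only. In 5 of the 6 day 0 libraries, those with 7.09 to 11 M estimated reads, 1488 olfactory, vomeronasal and taste receptor genes had a median of 3.38 to 4.93 RPKM. That median was 0.456 RPKM in day 0 VD3 replicate 2 (38.3 M reads) and 0.208 to 1.30 RPKM in the 18 libraries of differentiated cells. Low members of the day 0 group lie at this background, with 6, 4 and 5 of the 39 members below it in day 0 vehicle replicates 1, 2 and 3. Counts of members against day 0, and the values of some members, are therefore also given against the lone deep day 0 library, within the VD3-treated groups. As to the label, the stromal genes Col1a2, Pdgfra, Pdgfrb and Vcam1 were at 5.63 RPKM or more in all 24 libraries, and the defining MSC markers Thy1 (at most 1.78 RPKM) and Eng (at most 2.59 RPKM) were near 0. At day 0 the marker Nt5e had 0.310 to 1.75 RPKM, Cd44 5.01 to 12.8 and Ly6a 10.9 to 61.9. Of 9 MSC and stromal markers tested in limma, 8 were lower in adipogenic vehicle cells than at day 0 and 0 higher (adjusted p below 0.05). Of all genes tested, 65.5% were lower and 13.2% higher there. Summed over 14 leukocyte and macrophage genes, the libraries had 5.80 to 14.0 RPKM in differentiated groups, 7.87 to 19 in day 0 VD3 and 20.5 to 26.2 in day 0 vehicle. Between 8 and 12 of these 14 genes were below the sensory receptor median of their library in all 3 libraries of a group, and none was at 0 in all 3 libraries of any group. Their part in the results was not tested, and in bulk RNA fewer cells of a type and less RNA per cell cannot be told apart.

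**Figure D1:**
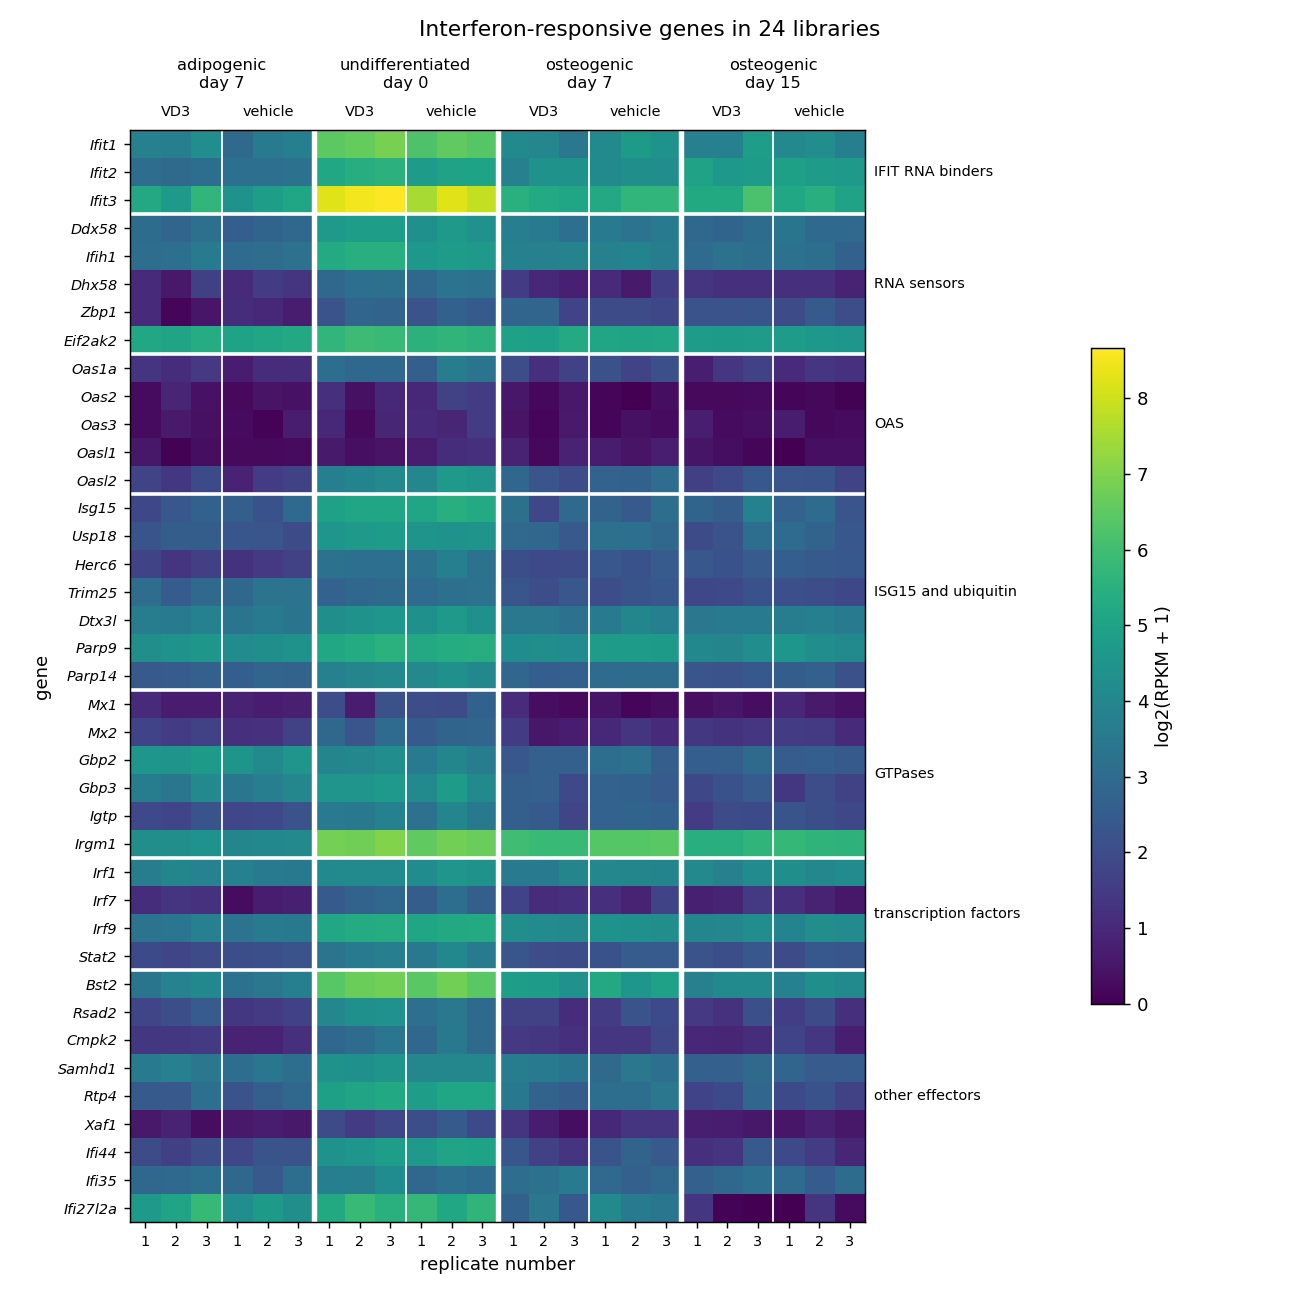
Level of each of the 39 interferon-responsive genes (rows, grouped by role) in each of the 24 libraries (columns, by group), as log2(RPKM + 1). Undifferentiated libraries stand out as the brightest block, with the mean of vehicle libraries highest at day 0 for 37 of the 39 genes. The matching share of all genes was not computed.

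Undifferentiated MSC held the highest levels of this programme. In vehicle, 37 of the 39 members had their highest group mean at day 0 and 2 in adipogenic day 7 cells, while the lowest mean was in adipogenic cells for 23 members, at osteogenic day 15 for 12 and at osteogenic day 7 for 4. The RPKM summed over the 39 members was 257, 289 and 313 in adipogenic day 7 vehicle libraries and 431, 443 and 447 at osteogenic day 7. It was 335, 335 and 287 at osteogenic day 15, against 983, 1273 and 1104 in day 0 vehicle libraries. No differentiated library reached the lowest day 0 library. With VD3 the same sum was 305 to 408 in adipogenic cells, 341 to 392 at osteogenic day 7 and 292 to 395 at day 15, against 1167 to 1453 at day 0.

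Differences were taken on the log2(RPKM + 1) scale, on which low genes change by less than their true ratio. On it 37 members passed the filter of 1 RPKM in 3 libraries, while Oas3 and Oasl1 (at most 1.81 and 1.32 RPKM in any library) did not and were not tested. A gene is called higher or lower at an adjusted p below 0.05 in limma, with Benjamini-Hochberg adjustment over all 21097 genes tested. In adipogenic day 7 cells 34 of the 37 were lower than at day 0 and 1 was higher, where 65.5% of all genes tested were lower and 13.2% higher. The median difference was -1.58 for the members and -0.83 for all genes. At osteogenic day 7, 35 of 37 were lower and 0 higher (at an unadjusted p below 0.05 also 0), against 50.4% of all genes lower and 13.6% higher, with medians of -1.17 and -0.46. At osteogenic day 15, 33 were lower and 0 higher (unadjusted, also 0), against 53.4% lower and 17.5% higher, with medians of -1.53 and -0.55. Oas2 and Mx1 passed the filter only through day 0 libraries, so their lower level in differentiated cells was partly fixed by the filter. Without both, 32, 33 and 31 of 35 members were lower in adipogenic day 7, osteogenic day 7 and osteogenic day 15 cells. These 3 comparisons share the 3 day 0 vehicle libraries. Every called member had groups of 3 and 3 libraries that did not overlap. How often this holds for called genes at large was not computed, so it does not set the members apart.

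The share of all genes that fell depended on the scaling. With quantile normalization only 24, 17.6 and 20.5% of all genes were lower (25, 25.7 and 29% higher) in adipogenic day 7, osteogenic day 7 and osteogenic day 15 cells, and the medians of all genes were -0.05, 0.06 and 0.06. Of the 37 members 30, 33 and 31 were then lower. With rescaling by median ratio, 46.3, 40.9 and 43.6% of all genes and 29, 28 and 33 members were lower, against 24.7, 28.9 and 27.9% of all genes higher. Against the lone deep day 0 library, among VD3-treated groups, 15.6, 2.51 and 6.04% of all genes were lower, 12, 6.97 and 10.9% higher and their medians were 0.11, 0.13 and 0.10. There 28, 30 and 32 of the 37 members were lower and 0 higher, with medians of -1.63, -1.35 and -1.65. These calls assume that the lone library varies like the other groups, since its own spread is not known. Subtracting each library's sensory receptor median left 27, 22 and 25 members lower and 3, 2 and 2 higher, where 14.8, 7.15 and 8.72% of all genes were lower and 25.6, 43.4 and 42.6% higher.

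Under all 4 of these settings 23 of the 34 members lower in adipogenic cells were still called lower, as were 17 of the 35 at osteogenic day 7 and 25 of the 33 at osteogenic day 15. The calls lost under at least 1 setting were those of Eif2ak2, Gbp3, Ifi27l2a, Irf1, Irf7, Mx1, Mx2, Oas2, Samhd1, Xaf1 and Zbp1 in adipogenic cells, and of Herc6, Irf7, Mx1, Mx2, Oas2, Rsad2, Trim25 and Xaf1 at osteogenic day 15. At osteogenic day 7 they were those of Cmpk2, Dtx3l, Eif2ak2, Gbp2, Herc6, Ifit2, Igtp, Irf1, Irf7, Irgm1, Mx1, Mx2, Oas1a, Oas2, Parp9, Rsad2, Trim25 and Xaf1. How many of all genes kept their calls under the same settings was not computed, so calls that held do not set the members apart. Isg15, Ifit1, Ifit3, Ifih1, Ddx58, Dhx58, Oasl2, Usp18, Irf9, Stat2, Bst2, Rtp4, Ifi44 and Parp14 were called lower in each state under all 4.

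**Figure D2:**
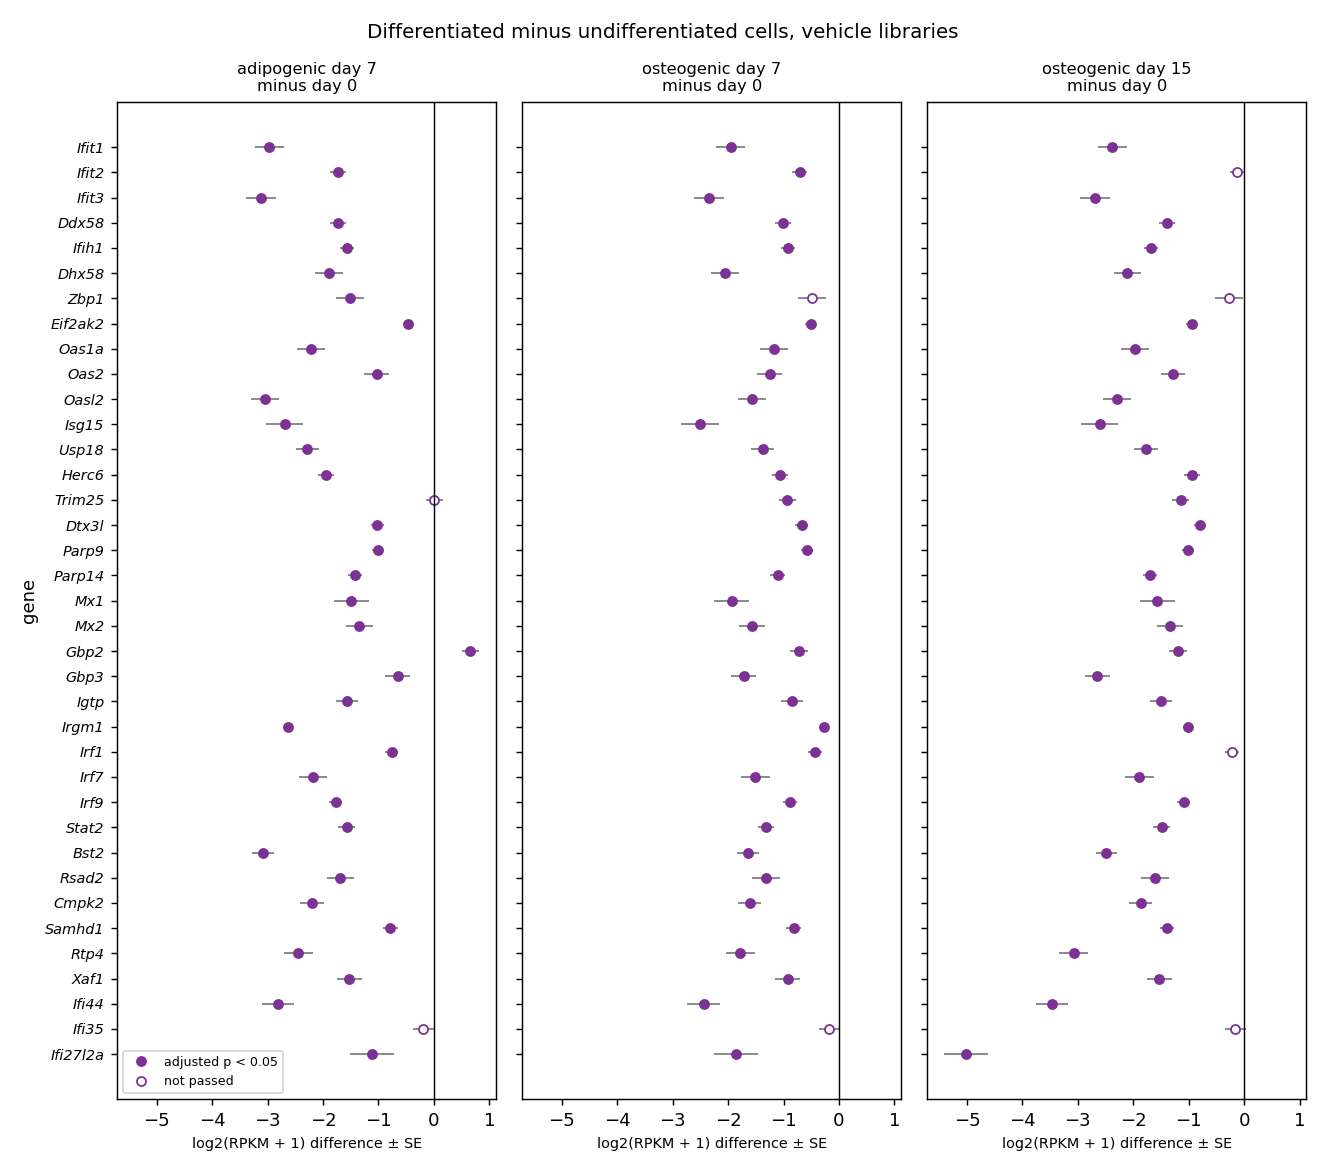
Difference of each tested member between adipogenic day 7, osteogenic day 7 or osteogenic day 15 and day 0 in vehicle libraries, on the log2(RPKM + 1) scale, with its standard error. Most points lie left of 0 and Gbp2 in adipogenic cells is the called one to the right, though Irgm1 at osteogenic day 7 and Eif2ak2 in adipogenic cells turn to the right of 0 with median-ratio rescaling and Xaf1 at osteogenic day 7 does so with quantile normalization.

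The IFIT proteins, which bind viral RNA and block its translation, included Ifit3, the member with the highest level at day 0. Ifit3 had 20.5, 27.0 and 32.8 RPKM in adipogenic day 7 vehicle libraries, against 185, 310.1 and 230.0 at day 0. Osteogenic vehicle libraries had 36.3, 51.5 and 51.0 RPKM at day 7 and 34.5, 43.1 and 30.7 at day 15. All 9 differentiated libraries were far below the 3 of day 0, and the 2 osteogenic ages overlapped. Ifit3 was 9.03-fold lower in adipogenic cells (log2 -3.12 ± 0.27 SE, adjusted p = 5.71e-09), 5.23-fold lower at osteogenic day 7 (-2.35 ± 0.27, 2.17e-06) and 6.70-fold lower at osteogenic day 15 (-2.69 ± 0.27, 1.60e-07). Against the lone deep day 0 library the differences were as large, at -3.30, -3.19 and -2.94.

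Ifit1, which binds RNA without a methylated cap, averaged 9.98 ± 2.72 RPKM in adipogenic cells, 20.9 ± 4.27 at osteogenic day 7 and 15.3 ± 2.81 at osteogenic day 15, against 83.2 ± 8.19 at day 0 (SD, n = 3 each). Its falls were 8.33-fold, 3.97-fold and 5.42-fold, with adjusted p of 5.11e-09, 9.65e-06 and 4.11e-07. Ifit2, which pairs with Ifit3, took another course. It had 7.86, 8.04 and 8.52 RPKM in adipogenic vehicle libraries and 16.2, 18.8 and 17.8 at osteogenic day 7. It had 29.7, 26.6 and 24.6 at osteogenic day 15, against 26.4, 30.6 and 31.3 at day 0. The osteogenic day 15 libraries overlapped those of day 0 (log2 -0.12 ± 0.14, adjusted p = 0.442), so that 2 of the 3 IFIT members were lower there and all 3 in the other 2 states.

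A relative counted under its own symbol followed Ifit3. I830012O16Rik averaged 15.1 ± 4.37 RPKM in adipogenic cells, 23.2 ± 4.16 and 18.4 ± 4.58 at osteogenic days 7 and 15, against 129 ± 32.6 at day 0. How reads shared by near-identical copies were split is not given in the sources used here, and the values of Ifit3, Ifit1, Oas1a, Irgm1 and Ifi27l2a are uncertain to that extent. Gm14446 and 2010002M12Rik, relatives of Ifit1, were at 7.41 and 4.48 RPKM at day 0 and at most 1.82 RPKM in vehicle groups of differentiated cells.

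Of the 5 cytosolic sensors, 5 fell in adipogenic cells (Eif2ak2 not with median-ratio rescaling and Zbp1 not called with background subtraction) and 4 at each osteogenic age. The call of Eif2ak2 at osteogenic day 7 was also lost under some of the settings above. The count of each role stands beside 65.5, 50.4 and 53.4% of all genes lower in adipogenic day 7, osteogenic day 7 and osteogenic day 15 cells. Ifih1 (MDA5), a helicase that detects long double-stranded RNA, had 7.10, 7.54 and 8.54 RPKM in adipogenic vehicle libraries. It had 12.8, 14.0 and 11.5 at osteogenic day 7 and 8.41, 7.67 and 5.39 at osteogenic day 15, against 23.4, 26.4 and 24.7 at day 0. No library of a differentiated state reached the lowest day 0 library. Ddx58 (RIG-I), the helicase for short uncapped RNA, averaged 5.75 ± 0.74 RPKM in adipogenic cells, 10.2 ± 1.23 and 7.62 ± 1.51 at osteogenic days 7 and 15, against 21.5 ± 2.94 at day 0. Dhx58 (LGP2), a helicase that regulates both, was 5.60-fold, 6.53-fold and 7.32-fold lower, with 8.0 ± 1.22 RPKM at day 0.

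Eif2ak2 (PKR), a kinase that stops translation when it binds double-stranded RNA, was also lower in each state. It averaged 34.1 ± 2.37 RPKM in adipogenic cells, 33.0 ± 0.525 and 24.1 ± 2.09 at osteogenic days 7 and 15, against 47.4 ± 2.5 at day 0. Its difference in adipogenic cells was -0.46 ± 0.10 (adjusted p = 0.000395) but 0.15 with median-ratio rescaling, so the direction there rests on the scaling. Zbp1, a sensor of Z-form nucleic acid, had 1.17, 0.944 and 0.633 RPKM in adipogenic vehicle libraries, against 3.60, 5.44 and 4.45 at day 0, which is the level of the sensory receptor background there, while the deep day 0 library, with its low background, had 6.08 RPKM. It was called only in adipogenic cells (log2 -1.52 ± 0.25, adjusted p = 2.49e-05) and the osteogenic differences were -0.49 (0.0944) and -0.27 (0.349). With background subtraction the adipogenic difference was -0.24 and not called, and Zbp1 was called higher at osteogenic days 7 and 15, at 1.31 and 1.55.

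The oligoadenylate synthetases make the signal that activates RNase L. Of the 3 tested, Oas1a, Oas2 and Oasl2, all were lower than at day 0 in each state. Oasl2 had 0.770, 1.83 and 2.30 RPKM in adipogenic vehicle libraries, against 15.1, 24.7 and 21.7 at day 0. The osteogenic libraries had 5.64, 5.39 and 7.60 RPKM at day 7 and 3.89, 3.81 and 2.42 at day 15. No day 0 library came near the others, and the fall was 12.6-fold in adipogenic cells (log2 -3.05 ± 0.25, adjusted p = 8.64e-10). Oas1a averaged 0.989 ± 0.349 RPKM in adipogenic cells, against 8.52 ± 3.11 at day 0. Oas2, with 1.69 ± 0.618 RPKM at day 0, passed the filter only through day 0 libraries. It was below the sensory receptor background there, and against the lone deep library its difference was 0.16 in adipogenic cells and 0.07 at osteogenic day 7. The direction of Oas2 thus turned with the day 0 library used.

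Isg15 encodes the ubiquitin-like protein that is attached to newly made proteins in the interferon response. It had 5.13, 3.51 and 6.76 RPKM in adipogenic vehicle libraries, against 32.9, 42.2 and 38.6 at day 0. Osteogenic vehicle libraries had 5.82, 4.36 and 7.65 RPKM at day 7 and 5.56, 7.08 and 3.86 at day 15. The 3 differentiated states overlapped one another, and all lay under the lowest day 0 library. The falls were 7.38-fold (log2 -2.69 ± 0.34, adjusted p = 1.25e-06), 6.38-fold (-2.51 ± 0.34, 1.27e-05) and 6.89-fold (-2.61 ± 0.34, 4.08e-06) in adipogenic day 7, osteogenic day 7 and osteogenic day 15 cells. Against the lone deep day 0 library they were -2.78, -2.40 and -2.03.

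Usp18, the protease that removes Isg15 and dampens the type I receptor, averaged 3.61 ± 0.487 RPKM in adipogenic cells, 7.60 ± 0.848 and 5.68 ± 1.51 at osteogenic days 7 and 15, against 21.3 ± 0.26 at day 0. Herc6, the mouse ligase for Isg15, was 5.48-fold, 2.39-fold and 2.15-fold lower. Parp9 and Parp14, ADP-ribosyltransferases, and Dtx3l, the ubiquitin ligase that partners Parp9, were lower in all 3 states, by 1.51-fold to 3.71-fold. Trim25, a ubiquitin ligase that acts on RIG-I, had 6.56, 8.89 and 8.79 RPKM in adipogenic vehicle libraries, against 7.23, 8.27 and 8.50 at day 0. These overlapped (log2 0.01 ± 0.15, adjusted p = 0.976), though with median-ratio rescaling and quantile normalization Trim25 was called higher, at 0.57 and 0.46. At osteogenic days 7 and 15 Trim25 was 2.15-fold and 2.60-fold lower. In all, 6 of the 7 members around Isg15 were lower in adipogenic cells and 7 of 7 at each osteogenic age.

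Of the 6 interferon-inducible GTPases, 5 were lower and 1 was higher in adipogenic cells, and 6 were lower at each osteogenic age. With median-ratio rescaling Irgm1 and Gbp2 were not called lower at osteogenic day 7, at 0.15 and -0.32, nor was Gbp3 in adipogenic cells, at -0.06. The calls of Mx1 and Mx2 in each state, and of Igtp at osteogenic day 7, were also lost under some of the settings above. Mx1, which passed the filter only through day 0 libraries, is in these counts. Gbp2, a guanylate-binding protein that coats membranes of intracellular microbes, had 21.1, 16.5 and 21.7 RPKM in adipogenic vehicle libraries, against 10.5, 14.7 and 11.4 at day 0. Osteogenic vehicle libraries had 7.72, 8.45 and 5.13 RPKM at day 7 and 4.76, 4.97 and 4.50 at day 15. Adipogenic libraries were the highest and osteogenic day 15 libraries the lowest, with no overlap with day 0 in any state. Gbp2 was 1.62-fold higher in adipogenic cells (log2 0.66 ± 0.16, adjusted p = 0.000947) and lower at osteogenic days 7 and 15 (-0.72, 0.000566 and -1.19, 3.25e-06). Against the lone deep day 0 library, with VD3 in both groups, the adipogenic difference was 0.56 and was not called.

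Irgm1, an immunity-related GTPase that acts on vacuoles and autophagy, had 14.8, 15.6 and 16.1 RPKM in adipogenic vehicle libraries, against 93.2, 111 and 102 at day 0. It had 82.4, 82.9 and 86.3 RPKM at osteogenic day 7 and 53.8, 48.3 and 47.5 at osteogenic day 15. The 4 states were separate, with adipogenic cells far below the rest. The adipogenic fall was 6.57-fold (log2 -2.64 ± 0.08, adjusted p = 4.83e-17) and the osteogenic day 15 fall 2.04-fold (-1.01 ± 0.08, 3.47e-09). At osteogenic day 7 the difference of -0.28 ± 0.08 (adjusted p = 0.00727) turned to 0.15 with median-ratio rescaling.

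**Figure D3:**
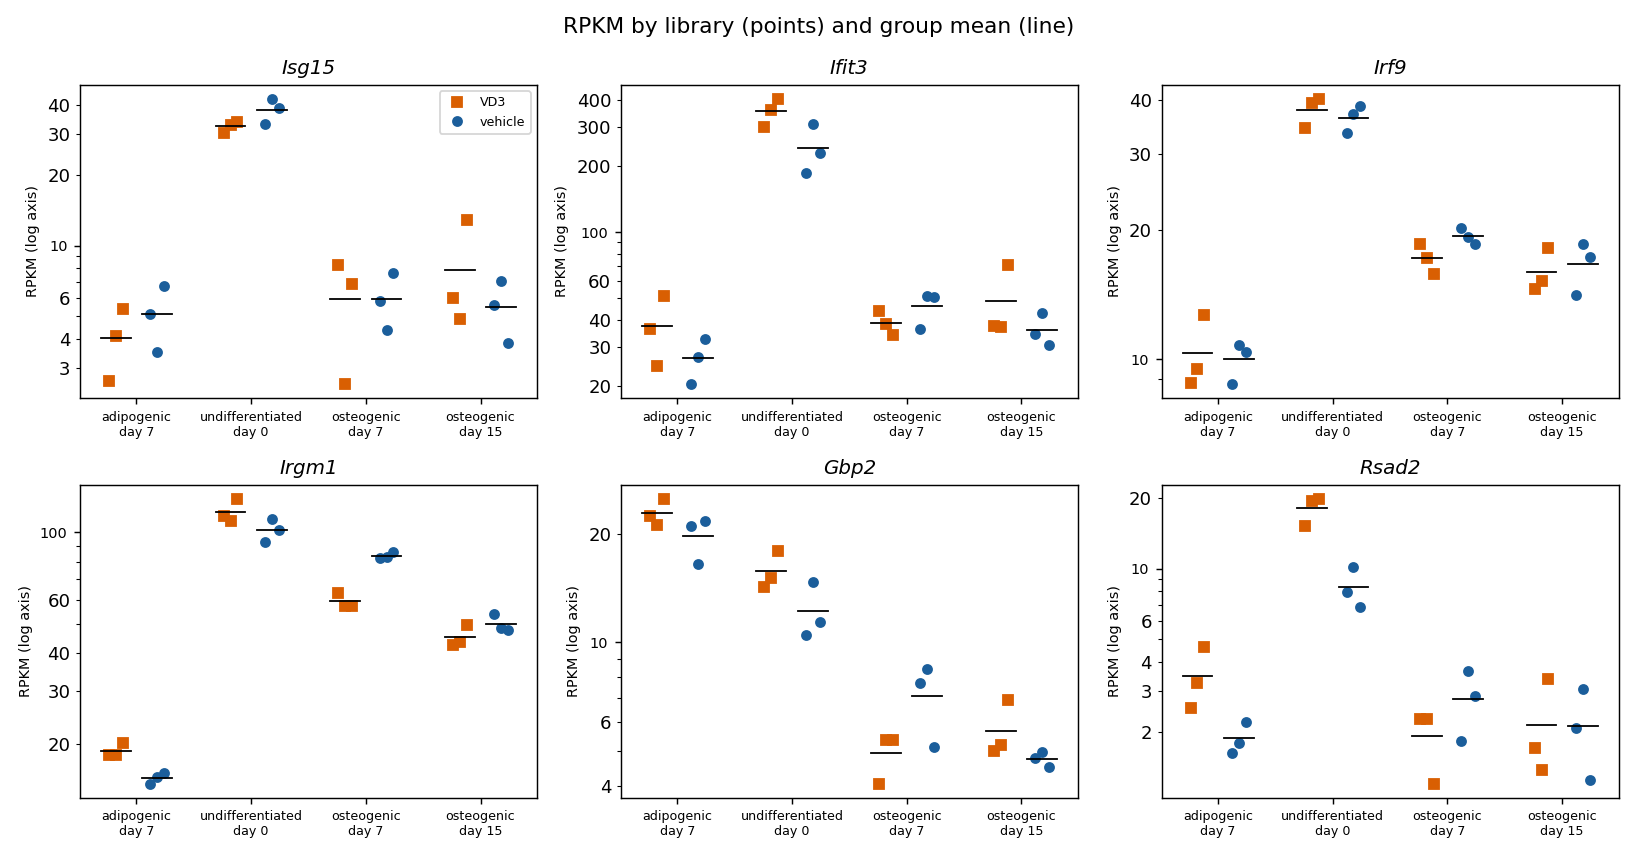
RPKM (log axis) of Isg15, Ifit3, Irf9, Irgm1, Gbp2 and Rsad2 in every library by state, with VD3 as orange squares left of vehicle as blue circles and a bar at each group mean. Isg15, Ifit3 and Irf9 are highest at day 0, Irgm1 steps down to 15.5 RPKM in adipogenic vehicle cells, Gbp2 is highest in adipogenic cells, and Rsad2 is higher with VD3 at day 0.

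Gbp3, a relative of Gbp2, averaged 12.2 ± 2.72 RPKM in adipogenic cells, 5.24 ± 0.558 and 2.33 ± 0.76 at osteogenic days 7 and 15, against 19.9 ± 5.73 at day 0. Its osteogenic day 15 fall was 8.57-fold (log2 -2.65 ± 0.23, adjusted p = 5.49e-09). Igtp (Irgm3), like Irgm1 an inducible GTPase of the vacuole, was 3.69-fold, 1.98-fold and 3.45-fold lower in adipogenic day 7, osteogenic day 7 and osteogenic day 15 cells. Mx1 and Mx2, dynamin-like GTPases that trap viral particles, had 3.82 ± 1.38 and 5.51 ± 0.937 RPKM at day 0 and at most 1.59 RPKM in vehicle groups of differentiated cells. Both were called lower in each state, but their day 0 level is that of the sensory receptor background, and Mx1 passed the filter only through day 0 libraries. In the deep day 0 library, day 0 VD3 replicate 2, Mx1 had 0.574 RPKM and Mx2 3.84 RPKM. Against that library Mx2 was called lower at osteogenic days 7 and 15, at -1.35 and -0.92, and was not called in adipogenic cells, at -0.63. After subtraction of the background, the osteogenic day 15 differences of Mx1 and Mx2 were 0.12 and 0.06. Irgm2, a relative of Irgm1 that is not a member, had 4.65 ± 1.15, 6.93 ± 1.38 and 4.18 ± 0.826 RPKM in adipogenic day 7, osteogenic day 7 and osteogenic day 15 cells, against 18 ± 2.82 at day 0.

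The transcription factors of the response were lower than at day 0 in most comparisons. Irf9, the DNA-binding part of the type I complex, had 8.76, 10.8 and 10.4 RPKM in adipogenic vehicle libraries, against 33.5, 37.1 and 38.7 at day 0. It had 20.1, 19.2 and 18.5 RPKM at osteogenic day 7 and 14.1, 18.5 and 17.3 at osteogenic day 15. The osteogenic ages lay close to each other, and adipogenic and day 0 libraries were apart from them. Its falls were 3.65-fold (log2 -1.77 ± 0.12, adjusted p = 3.29e-11), 1.89-fold (-0.88 ± 0.12, 1.07e-05) and 2.19-fold (-1.09 ± 0.12, 3.08e-07). Stat2, its partner, averaged 3.4 ± 0.192, 4.30 ± 0.683 and 3.71 ± 0.645 RPKM in adipogenic day 7, osteogenic day 7 and osteogenic day 15 cells, against 12.3 ± 2.70 at day 0.

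Irf7, the factor that amplifies type I interferon, had 0.216, 0.636 and 0.709 RPKM in adipogenic vehicle libraries, against 4.90, 7.76 and 5.14 at day 0. It averaged 1.49 ± 0.873 RPKM at osteogenic day 7 and 0.868 ± 0.423 at osteogenic day 15, and its falls were -2.18 ± 0.26, -1.51 ± 0.26 and -1.89 ± 0.26 on the log2 scale. Its day 0 level is little above the sensory receptor background, though day 0 VD3 replicate 2, with a background of 0.456 RPKM, had 5.78 RPKM. Irf1, a factor of the interferon gamma arm, averaged 11.4 ± 1.48 RPKM in adipogenic cells, 14.5 ± 0.511 and 17.1 ± 1.95 at osteogenic days 7 and 15, against 20.0 ± 2.07 at day 0. The osteogenic day 15 libraries overlapped day 0 (log2 -0.21, adjusted p = 0.133), so 3 of the 4 factors were lower there and 4 of 4 in the other 2 states.

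Among the other effectors, 8 of 9 were lower in each state (Xaf1 at osteogenic day 7 not with quantile normalization). Some of the settings above also lost the calls of Cmpk2 and Rsad2 at osteogenic day 7 and of Rsad2 and Xaf1 at osteogenic day 15. In adipogenic cells those of Ifi27l2a, Samhd1 and Xaf1 were lost under some setting. Bst2 (tetherin), which holds budding virus on the cell surface, had 8.45, 9.92 and 12.4 RPKM in adipogenic vehicle libraries, against 85.3, 112 and 86.5 at day 0. Osteogenic vehicle libraries had 36.9, 22.5 and 30.0 RPKM at day 7 and 13, 19 and 16.4 at day 15. The 4 states did not overlap, and the adipogenic fall was 9.21-fold (log2 -3.09 ± 0.20, adjusted p = 1.41e-11). Ifi27l2a, a small membrane protein, had 18.1, 25.4 and 18.6 RPKM in adipogenic vehicle libraries, against 53.2, 34.9 and 50.3 at day 0. It had 16.3, 10.5 and 9.56 RPKM at osteogenic day 7 and 0.00, 1.49 and 0.195 at osteogenic day 15. It was thus close to 0 at osteogenic day 15 in all 6 libraries, VD3-treated ones included (at most 1.59 RPKM), and the log2 difference of -5.01 ± 0.39 (adjusted p = 9.29e-09) was the lowest of any member in any comparison with day 0. Its relative Ifi27l1 did not share that course, at 86.4 ± 4.82 RPKM in adipogenic cells, 53.2 ± 5.89 and 37.2 ± 7.64 at osteogenic days 7 and 15 and 61.8 ± 6.77 at day 0.

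Rtp4, a chaperone of membrane receptors that restricts viruses, had 3.65, 5.13 and 6.38 RPKM in adipogenic vehicle libraries, against 27.6, 33.2 and 33.6 at day 0. It fell to 2.87 ± 0.667 RPKM at osteogenic day 15, 11-fold below day 0. Ifi44, a cytoplasmic protein of the response, was 8.81-fold, 6.38-fold and 16-fold lower in adipogenic day 7, osteogenic day 7 and osteogenic day 15 cells, with 24.3, 32.6 and 31.3 RPKM at day 0. Rsad2 (viperin) and Cmpk2, both of which act on nucleotides, averaged 1.88 ± 0.301 and 0.939 ± 0.285 RPKM in adipogenic cells, against 8.34 ± 1.70 and 7.98 ± 2.01 at day 0. Samhd1, which breaks down deoxynucleotides, was 1.80-fold to 2.93-fold lower. With median-ratio rescaling the adipogenic calls of Samhd1 and Ifi27l2a were lost, at -0.20 and -0.50, and against the lone deep library the adipogenic difference of Ifi27l2a was -0.66 and not called. Xaf1, a promoter of cell death, was at 3.52 ± 0.846 RPKM at day 0, the level of the sensory receptor background, and at osteogenic day 7 its difference of -0.93 became 0.14 with quantile normalization and 0.68 with background subtraction. Ifi35, which binds leucine zipper proteins, was not called in any state, at 6.29 ± 1.74, 6.24 ± 0.755 and 6.42 ± 1.51 RPKM in adipogenic day 7, osteogenic day 7 and osteogenic day 15 cells, against 7.19 ± 0.826 at day 0. With background subtraction Ifi35 was called higher in these 3 states, at 0.73, 0.84 and 0.85, while against the lone deep library it was called lower at osteogenic day 15, at -0.80.

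Within the osteogenic course, the older cells had still less of some members. At day 15, 13 of the 37 tested members were lower than at day 7 and 1 was higher, where 6.47% of all genes tested were lower and 6.87% higher, and the median was -0.39 for the members. The median of all genes was 0. The 6 largest falls by the naming rule were Ifi27l2a (log2 -3.15 ± 0.39, adjusted p = 1.32e-05), Rtp4 (-1.30, 0.00169), Gbp3 (-0.93, 0.00659), Bst2 (-0.83, 0.00575), Ifih1 (-0.77, 0.000157) and Irgm1 (-0.74, 1.53e-06). Ifi44, Samhd1, Igtp, Oas1a, Parp14, Parp9 and Eif2ak2 were also lower. Ifit2 was the 1 member that was higher, at 27.0 ± 2.55 RPKM at day 15 and 17.6 ± 1.29 at day 7 (0.59 ± 0.14, adjusted p = 0.00576), a call lost with median-ratio rescaling, where the difference was 0.55. Isg15, Ifit1 and Ifit3 differed by -0.10 to -0.42 with adjusted p of 0.403 to 0.970, and 0 of the 4 transcription factors was called. Among VD3-treated libraries 7 members were lower at day 15, and the share of all genes called there is not given here, so the count cannot be set against it.

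At day 7 the 2 lineages differed in which members they kept. In adipogenic cells 20 of 37 members were lower than in osteogenic cells and 3 were higher, where 25.4% of all genes tested were lower and 12.4% higher, with medians of -0.43 for the members and 0.02 for all genes. The higher members were Gbp2 (log2 1.37 ± 0.16, adjusted p = 1.57e-07), Gbp3 (1.06 ± 0.23, 0.000476) and Trim25 (0.94 ± 0.15, 2.26e-05). Irgm1 was the lowest, at 15.5 ± 0.617 RPKM in adipogenic and 83.9 ± 2.15 RPKM in osteogenic cells, 5.40-fold lower (-2.36 ± 0.08, 2.29e-16). Oasl2, Bst2, Ifit2, Ifit1 and Usp18 followed, at -1.49 to -0.90 with adjusted p of 3.82e-05, 2.50e-06, 1.98e-06, 0.00310 and 0.00124. Irf9 was 1.93-fold lower (adjusted p = 2.00e-06), Irf1 and Irf7 were lower by less (-0.33, 0.0418 and -0.67, 0.0462) and Stat2 was not called (-0.26, 0.206). Isg15 had 5.13 ± 1.63 RPKM in adipogenic and 5.95 ± 1.65 RPKM in osteogenic cells and was not called (0.749). Among VD3-treated libraries 9 members were lower and 5 higher in adipogenic cells, and there Ifit1, Irf1, Dtx3l, Parp9 and Cmpk2 had differences of the other sign, 0.03, 0.14, 0.28, 0.20 and 0.10. The share of all genes called among VD3-treated libraries is not given here, so these counts cannot be set against it.

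VD3 changed 5 members at day 0 and 2 at osteogenic day 7. At day 0, 5 of 37 members were higher with VD3 and 0 lower (at an unadjusted p below 0.05, 9 and 2), where 3.98% of all genes tested were higher and 11% lower. Unadjusted, 6.52% of all genes were higher and 27.6% lower. The medians were 0.04 for the members and -0.27 for all genes. Rsad2 (viperin) had 15.2, 19.4 and 19.8 RPKM with VD3, against 7.98, 10.2 and 6.86 with vehicle. Ifi35 had 12.5, 12.1 and 17.3 RPKM with VD3, against 6.35, 8.0 and 7.21 with vehicle. Ifih1 had 38.1, 43.6 and 42.2 RPKM with VD3, against 23.4, 26.4 and 24.7 with vehicle. In each of these genes all 3 VD3 libraries were above all 3 vehicle libraries, and the deep library with the low background was among the high ones.

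The day 0 rises were 2.17-fold for Rsad2 (log2 1.04 ± 0.25, adjusted p = 0.00717), 1.94-fold for Ifi35 (0.86 ± 0.19, 0.00374) and 1.66-fold for Ifih1 (0.71 ± 0.13, 0.000463), and these 3 calls held under every alternative run. Ifit2 averaged 40.7 ± 5.71 RPKM with VD3 and 29.4 ± 2.65 with vehicle (0.45 ± 0.14, adjusted p = 0.0349), and Samhd1 20.3 ± 0.934 and 15.1 ± 0.128 RPKM (0.41 ± 0.13, 0.0377). Both calls were lost when any of 5 of the 6 day 0 libraries was left out. Isg15 and Ifit3 were not called, at 32.2 ± 1.65 and 355 ± 51.9 RPKM with VD3 and 37.9 ± 4.67 and 242 ± 63.2 with vehicle. Their differences were -0.22 and 0.57, and that of Irgm1 was 0.20.

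**Figure D4:**
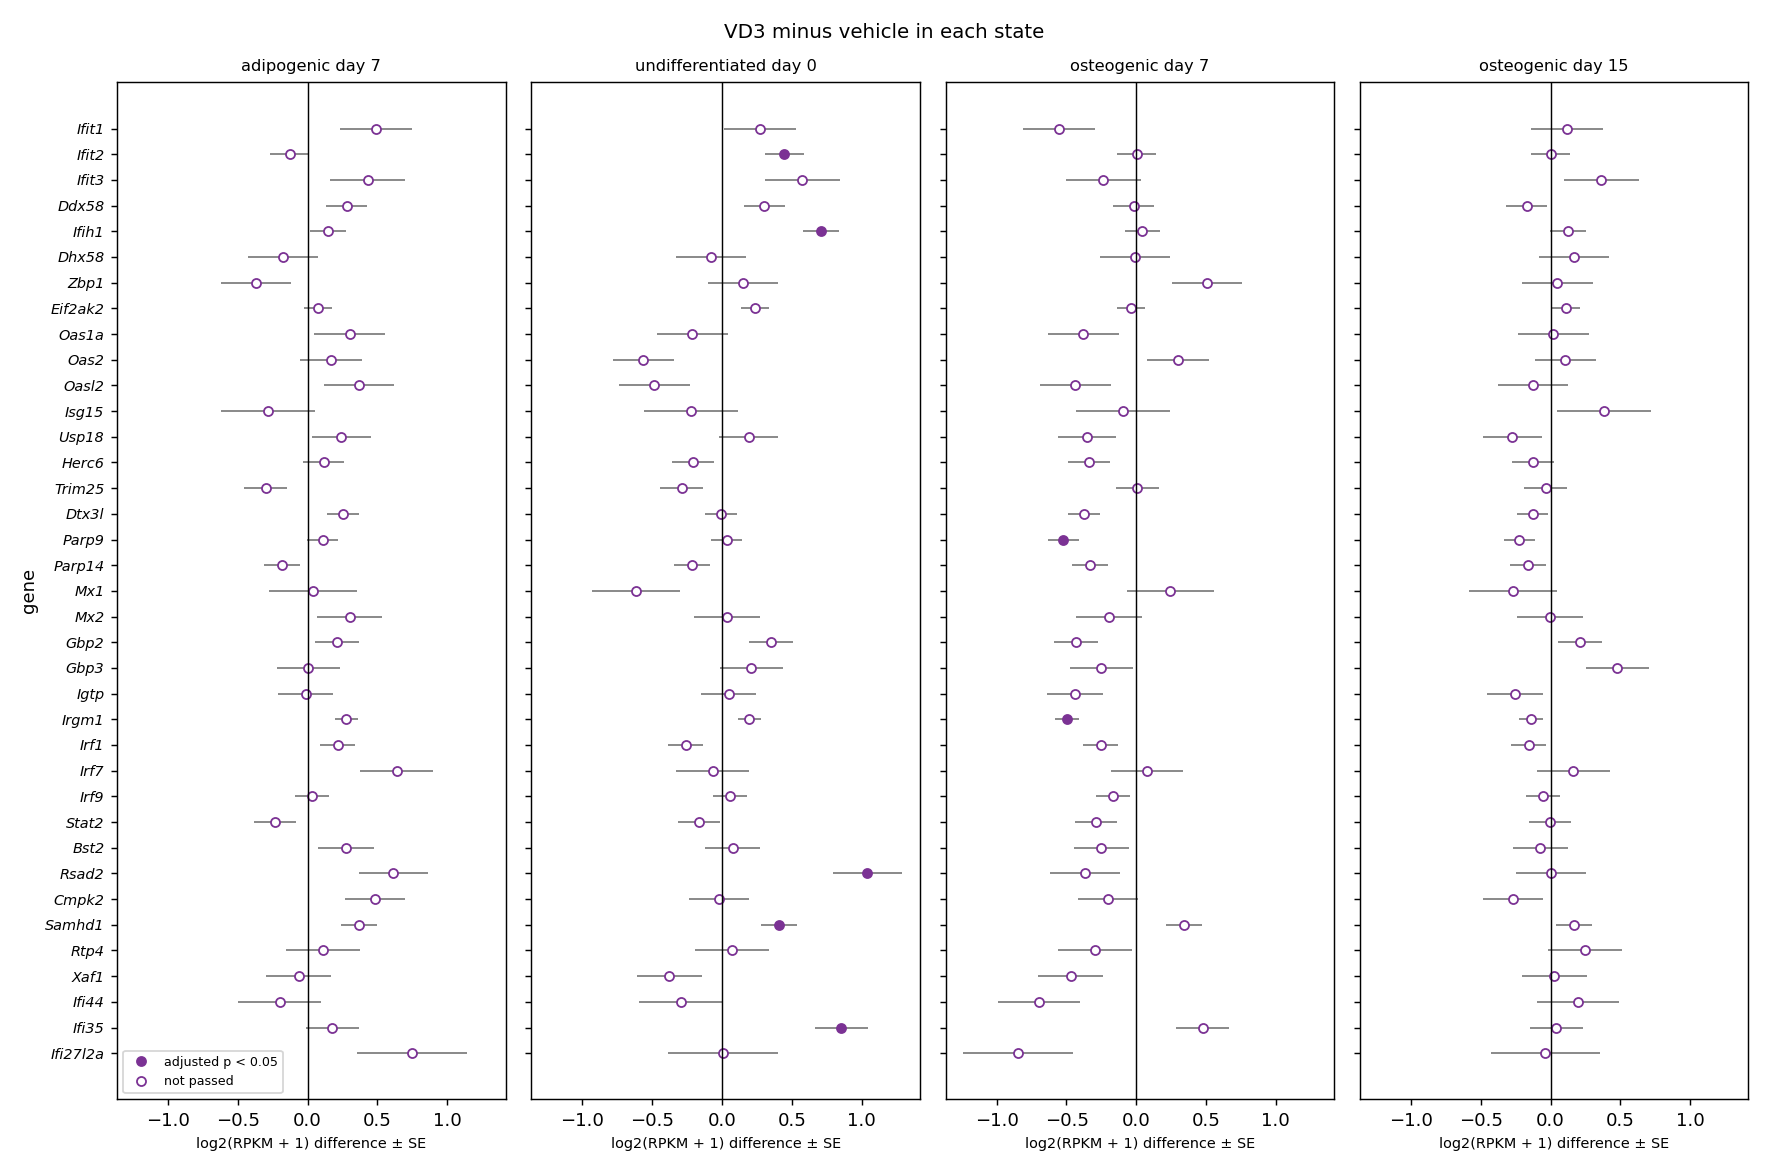
Difference of each tested member between VD3 and vehicle in adipogenic day 7, day 0, osteogenic day 7 and osteogenic day 15 cells, on the log2(RPKM + 1) scale, with its standard error. Called members are Rsad2, Ifi35, Ifih1, Ifit2 and Samhd1 (higher, day 0) and Parp9 and Irgm1 (lower, osteogenic day 7).

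At osteogenic day 7, VD3 went with lower levels of 2 of the 37 members and higher levels of 0 (unadjusted, 10 and 2), where 2.35% of all genes tested were lower and 2.91% higher. Unadjusted, 6.39% of all genes were lower and 8.42% higher. The medians were -0.25 for the members and 0.07 for all genes. Irgm1 had 63.2, 57.3 and 57.0 RPKM with VD3, against 82.4, 82.9 and 86.3 with vehicle. Parp9 had 17.4, 18.4 and 17.1 RPKM with VD3, against 25.7, 26.5 and 25.1 with vehicle. The groups were well apart, and the differences of -0.50 ± 0.08 (adjusted p = 0.000498) and -0.52 ± 0.11 (0.00429) were called under every alternative run. Dtx3l, the partner of Parp9, had 10.0, 10.1 and 8.56 RPKM with VD3, against 11.2, 14.7 and 12.4 with vehicle, and its difference of -0.38 did not pass (adjusted p = 0.0566). Dtx3l and Parp9 are neighbours on the chromosome, and whether the counting used strand is not given in the sources used here.

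At osteogenic day 15, 0 of 37 members were called in limma (unadjusted, 1 higher and 0 lower), where 0.526% of all genes tested were higher and 0.246% lower. Unadjusted, 2.74% of all genes were higher and 3.33% lower. In adipogenic cells 0 members were called (unadjusted, 6 higher and 0 lower), where 1.51% of all genes were higher and 0.574% lower, and the medians were 0.17 and 0.05. The unadjusted shares of all genes there were 4.84% higher and 2.73% lower. Irgm1 had 18.4, 18.5 and 20.2 RPKM with VD3, against 14.8, 15.6 and 16.1 with vehicle in adipogenic cells, which did not overlap, but the difference of 0.28 did not pass (adjusted p = 0.125). Rsad2 had 2.54, 3.26 and 4.64 RPKM with VD3, against 1.63, 1.80 and 2.22 with vehicle there.

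The difference of the VD3 effect between states was itself tested. Between adipogenic and osteogenic day 7 cells it was called for 3 members, all with the higher effect in adipogenic cells, where 0.967% of all genes tested were higher and 0.853% lower. These were Irgm1 (0.77 ± 0.12, adjusted p = 0.000546), Parp9 (0.63 ± 0.16, 0.0362) and Dtx3l (0.63 ± 0.16, 0.0431). Between osteogenic day 7 and day 0 cells the effect was lower at osteogenic day 7 for Irgm1 (-0.69 ± 0.12, 0.00213), Rsad2 (-1.41 ± 0.35, 0.0369) and Ifih1 (-0.67 ± 0.18, 0.0485), where 0.702% of all genes were lower and 1.85% higher. The calls of Irgm1 held under every alternative run and those of the other 4 genes did not. No member was called between osteogenic days 15 and 7 (unadjusted, 4 higher and 0 lower, where 0.0521% of all genes were called higher and 0.133% lower) or between adipogenic day 7 and day 0 (unadjusted, 3 higher and 3 lower, where 2.46% were called higher and 1.01% lower). Unadjusted, 2.29% of all genes were higher and 4.27% lower in the former, and 18.7% higher and 3.51% lower in the latter.

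Receptors and kinases of the pathway were called in both directions. Ligands were called only lower, but most of those tested passed the filter only through day 0 libraries, so that direction was largely fixed by the filter. Of 36 pathway genes in the files, a list of ligands, receptors, kinases, regulators and upstream sensors, 31 were tested. In adipogenic day 7 cells 3 were higher and 18 lower than at day 0, at osteogenic day 7 6 were higher and 14 lower, and at osteogenic day 15 6 were higher and 16 lower. Of all genes tested, 65.5, 50.4 and 53.4% were lower and 13.2, 13.6 and 17.5% higher in these comparisons, so the pathway counts are near that background. The ligands Ifnb1, Ifna1, Ifna2, Ifna5 and Ifng and the sensor Tlr7 passed the filter only through day 0 libraries. In the deep day 0 library, VD3 replicate 2, these ligands had 0.301, 0.090, 0.000, 0.000 and 0.235 RPKM. Without these ligands and Tlr7, 6 genes in all, of 25 genes 13, 8 and 11 were lower and 3, 6 and 6 higher.

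Ifngr1, the binding chain of the interferon gamma receptor, averaged 123 ± 3.16 RPKM in adipogenic cells, against 77.6 ± 5.12 at day 0 (log2 0.66, adjusted p = 1.89e-07), while Ifngr2, its partner, was lower there (-0.72, 6.34e-05). These directions were the other way round at osteogenic day 7, at -0.76 (1.63e-07) for Ifngr1 and 0.68 (0.000165) for Ifngr2. Ifnar1, a chain of the type I receptor, differed by -0.28, 0.19 and 0.38 in adipogenic day 7, osteogenic day 7 and osteogenic day 15 cells. Among type I ligands in day 0 vehicle libraries, Ifnb1 had 1.17 ± 0.323 RPKM, below the sensory receptor background of those libraries. Ifna4 had 4.76, 4.63 and 4.58 RPKM, near that background. Ifnk had 5.90, 7.53 and 9.24 RPKM, above it.

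With VD3 at day 0, 4 of the 31 pathway genes were higher and 8 lower, against 2 higher and 0 lower at osteogenic day 7 and 0 in each direction in the other 2 states. Of all genes tested 3.98% were higher and 11% lower at day 0, and 2.91% higher and 2.35% lower at osteogenic day 7. Of the 8 lower ones at day 0, 3 were the type I ligands Ifna2, Ifna4 and Ifnk. The sensory receptor background was 3.50 to 4.93 RPKM in day 0 vehicle libraries and 0.456 RPKM in day 0 VD3 replicate 2. In that replicate Ifna2, Ifna4 and Ifnk had 0.000, 0.761 and 0.912 RPKM. VD3 replicates 1 and 3, with backgrounds of 4.45 and 3.38 RPKM, had 1.43 and 1.42 RPKM of Ifna2, 1.69 and 2.69 of Ifna4 and 4.65 and 3.23 of Ifnk. The part of the background in these 3 calls was not tested. Jak2, the kinase of the interferon gamma receptor, had 37.3, 42.8 and 41.5 RPKM with VD3 at day 0, against 25.6, 25.4 and 20.8 with vehicle (log2 0.74, adjusted p = 1.37e-05). Jak2 also had 40.4, 42.3 and 52.2 RPKM with VD3 at osteogenic day 7, against 32.4, 33.4 and 34.9 with vehicle (0.40, 0.0137). Jak1 and Tyk2 were also higher with VD3 at day 0 (0.51, 0.000512 and 0.64, 0.00824). Ifngr1 went the other way, at 40.8, 46.3 and 41.0 RPKM with VD3, against 79.1, 71.9 and 81.8 with vehicle at day 0 (-0.85, 4.31e-08). Its VD3 libraries were all below its vehicle libraries, in a state where Rsad2, Ifi35 and Ifih1 were higher.

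**Figure D5:**
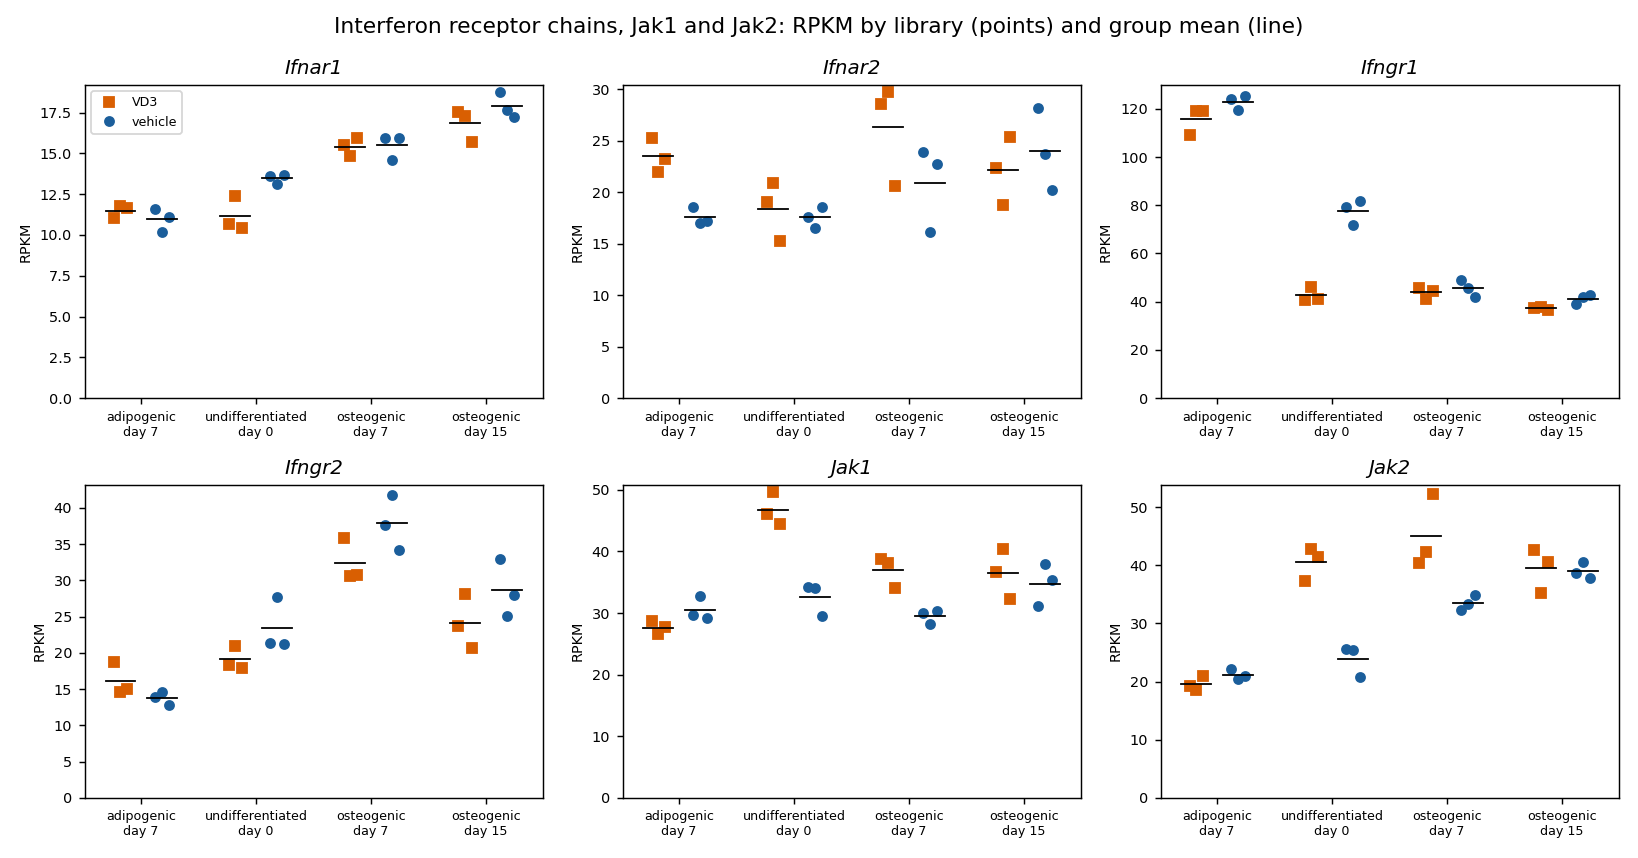
RPKM (linear axis) of the receptor chains Ifnar1, Ifnar2, Ifngr1 and Ifngr2 and of the kinases Jak1 and Jak2 in every library by state, with VD3 as orange squares left of vehicle as blue circles and a bar at each group mean. Ifngr1 is highest in adipogenic cells, and at day 0 Ifngr1 is lower and Jak2 higher with VD3 than with vehicle.

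Libraries of a group differed for many members at once. Osteogenic day 15 VD3 replicate 3 was the highest of its group for 27 of the 39 members, and Isg15, Ifit1 and Ifit3 had 12.9, 27.6 and 71.1 RPKM there, against 4.84 to 5.97, 12.7 to 12.8 and 37.2 to 37.5 RPKM in the 2 other libraries of that group. Its RPKM summed over members was 395, against 295 and 292. Replicate 3 was likewise the highest for 26 members in adipogenic VD3 libraries and 27 in day 0 VD3 libraries, and replicate 2 for 28 in day 0 vehicle libraries. The matching share of all genes was not computed, so these counts may not be particular to the members. The standard error of a log2 difference was 0.27 for Ifit3 and 0.08 for Irgm1.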

How the data were processed

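RNA of 24 libraries was measured, 3 in each of 8 groups set by the labels. Per the labels' protocols, total RNA was depleted of ribosomal RNA and made into directional libraries, and per the submitters' processing notes reads were aligned to mm9 with TopHat, whose version, like the counting tool and annotation, is not given in the sources used here. The authors deposited RPKM per transcript, 30795 values a library. Transcripts were summed by symbol. The 40 values under 25 symbols that had become dates were left out, leaving 25385 genes. Depth was estimated, at 7.09 to 46.1 M reads a library, from the step between 150 low values of olfactory receptor genes, of which 98.0 to 100.0% lay within 0.1 of a whole read. Within groups, libraries correlated at 0.926 to 0.993, and 0 pairs of libraries held identical values.

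Genes with 1 RPKM in 3 libraries (21097) were tested on log2(RPKM + 1), computed from the deposited RPKM, with limma 3.58.1 in R 4.3.3. A linear model over all 24 libraries with 8 group means, trended and robust empirical Bayes, and Benjamini-Hochberg adjustment within each comparison was used, at an adjusted p of 0.05. The test was checked on simulated data. Python 3.11.15, numpy 2.4.6, pandas 2.3.3 and matplotlib 3.10.9 were used for tables and figures. Sequences are from RefSeq (GRCm38.p6), matched by symbol.

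In each comparison the rule names the 6 called members with the largest change each way, given a mean of 5 RPKM or more in the group that is higher, and always Isg15, Ifit1, Ifit3, Irf7, Irf9, Stat2 and Irf1. Other members are given to account for each role. The members, roles, pathway and marker lists and alternatives were chosen with earlier results of these data known. Alternatives were a pseudocount of 0.1, no filter or one of 5 RPKM, median-ratio and quantile scaling, subtraction of each library's sensory receptor median, the largest transcript, plain empirical Bayes, only the libraries compared, VD3-treated libraries, day 0 VD3 replicate 2 as lone day 0 library, a replicate block and leaving out each library. A result of the pathway list is not reported here, and counts include it.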

Additional observations from a re-analysis of the deposited data

Results flagged for a closer look

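The effect of VD3 was called different between states for 5 members by a test of the difference itself, in limma with Benjamini-Hochberg adjustment over all 21097 genes tested. The calls of Irgm1 held under every alternative run, and those of Parp9, Dtx3l, Rsad2 and Ifih1 did not. Between adipogenic and osteogenic day 7 cells the difference of the log2 effects was 0.7743 for Irgm1 (adjusted p = 0.000546), where VD3 gave 0.28 in adipogenic and -0.50 in osteogenic cells. It was 0.6331 for Parp9 (0.0362) and 0.6276 for Dtx3l (0.0431). Between osteogenic day 7 and day 0 cells it was -0.6939 for Irgm1 (0.00213), -1.41 for Rsad2 (0.0369) and -0.6672 for Ifih1 (0.0485). Of all genes tested, 0.967% were called higher and 0.853% lower between adipogenic and osteogenic day 7 cells. Between osteogenic day 7 and day 0 cells the shares were 1.85% higher and 0.702% lower. At day 0 the VD3 effects of Rsad2 and Ifih1 were 1.04 and 0.71. At osteogenic day 7 Rsad2 averaged 1.92 ± 0.617 RPKM with VD3 and 2.79 ± 0.913 RPKM with vehicle, and Ifih1 13.1 ± 0.486 RPKM with VD3 and 12.7 ± 1.26 RPKM with vehicle (SD, n = 3 each).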

How the results depend on the processing

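Most calls of single members against day 0 kept their direction, and 14 values reversed, 9 of them against day 0. With median-ratio rescaling Irgm1 was 0.1505 at osteogenic day 7 and Eif2ak2 0.1547 in adipogenic cells. With quantile normalization Xaf1 was 0.135 at osteogenic day 7, and with background subtraction Xaf1 was 0.6755 there and Mx1 and Mx2 were 0.1248 and 0.06479 at osteogenic day 15. Against the lone deep day 0 library Oas2 was 0.07195 at osteogenic day 7, and Mx1 and Oas2 were 0.1302 and 0.1569 in adipogenic cells. In VD3-treated libraries, adipogenic over osteogenic day 7, Cmpk2, Dtx3l, Ifit1, Irf1 and Parp9 were 0.101, 0.282, 0.03109, 0.1409 and 0.1985. The cause was not tested.

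Counts of called members moved as follows, given without the matching share of all genes. With background subtraction, osteogenic day 7 against day 0 had 2 higher and 22 lower, osteogenic day 15 had 2 higher and adipogenic day 7 had 3 higher. Adipogenic day 7 against day 0 had 2 higher with median-ratio or quantile scaling and 0 against the lone library. Osteogenic day 15 over day 7 had 0 higher with median-ratio scaling and 7 lower in VD3-treated libraries. Adipogenic over osteogenic day 7 had 5 higher in only the libraries compared and in VD3-treated ones, 13 lower with median-ratio or quantile scaling and 9 in VD3-treated libraries. For VD3, day 0 had 3 higher at a pseudocount of 0.1 and osteogenic day 7 had 1 higher with the largest transcript. The effect difference of adipogenic and osteogenic day 7 had 1 higher with median-ratio scaling, background subtraction, plain empirical Bayes and only the libraries compared. That of osteogenic day 7 and day 0 had 1 lower at a pseudocount of 0.1 and 5 lower at a filter of 5 RPKM or with median-ratio scaling, and that of adipogenic day 7 and day 0 had 2 lower with quantile and 1 with background subtraction.

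Leaving out each library gave 0 to 0 higher and 34 to 35 lower at osteogenic day 7 against day 0, 0 to 0 and 33 to 33 at osteogenic day 15, 1 to 1 and 33 to 34 in adipogenic cells, 1 to 1 and 9 to 13 for osteogenic day 15 over day 7, and 3 to 3 and 15 to 18 for adipogenic over osteogenic day 7. VD3 gave 3 to 6 higher and 0 to 1 lower at day 0, 0 to 1 and 2 to 3 at osteogenic day 7, and 0 to 0 each way in the other states. At day 0 it was 3 higher without vehicle replicate 1, 2 or 3 or VD3 replicate 2 or 3, and 1 lower without replicate 1 of either. At osteogenic day 7 it was 1 higher without VD3 replicate 3. The effect difference of adipogenic and osteogenic day 7 gave 1 to 2 higher and 0 to 1 lower, with 1 higher without osteogenic vehicle 2, osteogenic VD3 1 or 3, adipogenic vehicle 1 or adipogenic VD3 2 or 3. That of osteogenic day 7 and day 0 gave 0 to 1 higher and 1 to 5 lower, with 5 without day 0 VD3 replicate 1 and 1 without day 0 vehicle 1 or 3, day 0 VD3 2 or 3, osteogenic vehicle 2 or osteogenic VD3 1 or 3. That of adipogenic day 7 and day 0 gave 0 to 2 lower, with 2 without day 0 VD3 1 and 1 without adipogenic VD3 3.

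No pairing of the samples by replicate number was seen, though this check cannot exclude one, since correlations of both kinds spread widely. Over 84 pairs with the same number deviations correlated at a median of 0.0036 (-0.352 to 0.444). Over 168 other pairs the median was -0.0043 (-0.475 to 0.510). With a replicate block, adipogenic over osteogenic day 7 had 19 lower, VD3 at osteogenic day 7 had 3 lower and the effect difference of osteogenic day 7 and day 0 had 2 lower, and all other counts were equal. At 3 libraries a group and 7.09 M reads in the shallowest, members of a few RPKM lie near the background in the 5 shallow day 0 libraries.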
